A study of Mus musculus with 2 samples.

Results

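The heat shock chaperones are proteins that keep other proteins folded, and 10 of their genes, of 27376 gene names on the array, were followed here in the mouse lens: Hspa1a, Hspa1b, Hspa8, Hspa4l, Hsph1, Hsp90aa1, Dnajb1, Bag3, Hspb1 and Hspb8. The genes were chosen by name with earlier results of these data known. Every non-control probe with such a name was taken and kept apart, which gave 18 probes of the 41174 on the array. RNA came from isolated lenses at postnatal day 1, from mice with a conditional knockout of the homeobox gene Msx2 made with Le-Cre (CKO) and from Msx2 wild-type mice. Le-Cre is a Pax6 promoter transgene active in the surface ectoderm from which the lens forms. Whether Le-Cre was present in the wild-type mice is not in the labels, and the sources used here do not give the number of animals or lenses behind each RNA. Each genotype had 1 single-colour Agilent array, so the differences below have no replicate check and no p-value. Hspa1a and Hspb8 were 6.50-fold to 8.24-fold higher in CKO and Bag3 2.40-fold to 2.81-fold, whereas Hspa8, Hsp90aa1, Hsph1, Hspa4l, Dnajb1 and Hspb1 stayed below 2-fold on each of their probes when arrays were scaled to their 75th percentile.

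Cells under protein-folding stress switch on these genes through heat shock factors, which bind inverted repeats of the letters GAA upstream of the gene. HSP70 proteins hold exposed stretches of unfolded proteins, J-domain proteins bring them their clients, and HSP110 and BAG proteins make them let go. HSP90 acts later in folding, and the small heat shock proteins hold aggregating proteins without using ATP. The lens depends on small heat shock proteins because its fibre cells keep their proteins for life: alpha crystallins belong to that family, and the heat shock factor HSF4 is needed for normal lens development.

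The arrays were alike in overall brightness, with 22702 probes (55.1%) well above background in CKO and 22326 (54.2%) in wild type, and no spot was saturated. Msx2 gave 371 ± 15.9 intensity units in wild type and 4.62 ± 1.77 in CKO (SD over 10 spots of the same array), where 0 of the 10 spots were well above background, so it was at least 22.6-fold lower in CKO. All 14 listed fibre cell markers of the lens were measured on both arrays. Each chaperone probe was a single spot per array, and its error below is the one the scanner software assigned to that spot. A signal measures the RNA of the whole lens sample, in which fewer cells of a type and less RNA per cell cannot be told apart. Signals of different probes are not comparable with one another, so each was compared between the arrays. Summed signals of marker lists, given further on, are set by their brightest probes.

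Of the 18 probes, 16 from 9 genes were well above background on both arrays. Among these 16, 5 were at least 2-fold higher in CKO and 0 at least 2-fold lower, against 3.64% and 3.57% of all 21010 measured probes. The 5 probes belong to 3 genes, Hspa1a, Hspb8 and Bag3. Because the genes were chosen with earlier results of these data known, the shares describe the chosen genes and are not a test. At 1.5-fold, 9 of the 16 were higher, against 9.23% of all measured probes. The median log2 difference of the 16 probes, CKO minus wild type after each array was scaled to its 75th percentile, was 0.72, and that of all measured probes was -0.08. The log2 difference of 15 of the 16 probes lay above that median of all probes. Probes of the same gene differed from each other with an SD of 0.36 across 4807 genes, and 6 of the 16 chaperone probes showed a difference smaller than that.

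**Figure D1:**
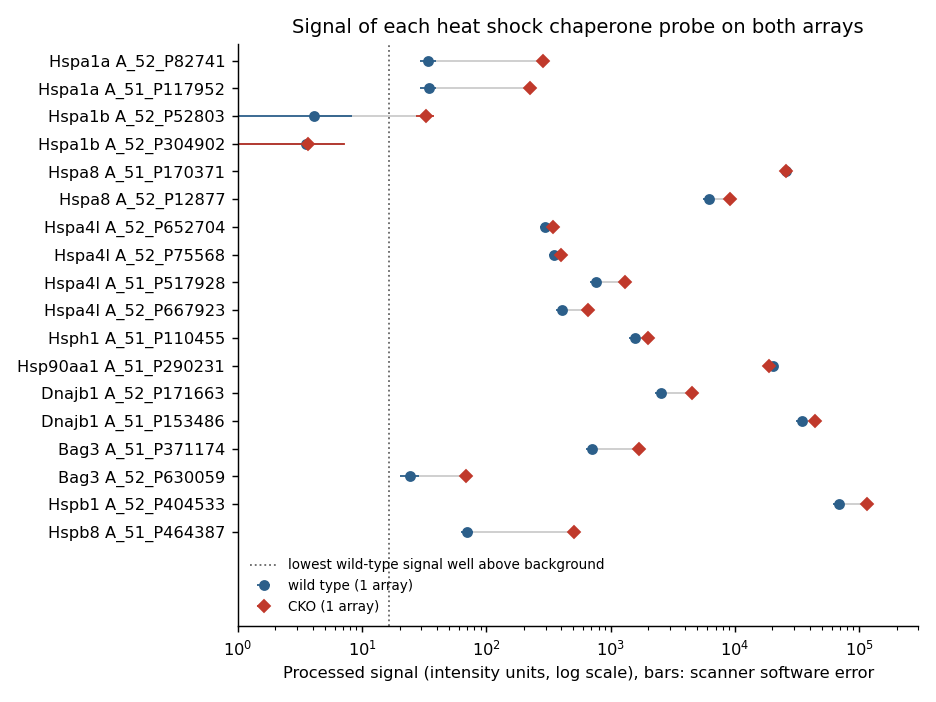
Processed signal (intensity units, log scale) of the 18 heat shock chaperone probes on the wild-type array (circles) and the CKO array (diamonds), with bars for the scanner software's error and a dotted line at the lowest wild-type signal well above background (16.6). The gap between the arrays is widest for Hspa1a and Hspb8 among the 16 probes measured on both, and the second Hspa1b probe lies below the dotted line on both arrays.

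The stress-inducible HSP70 genes, Hspa1a and Hspa1b, encode the HSP70 proteins that unstressed cells make at low levels and that stress induces. On the probe A_52_P82741 Hspa1a gave 283 ± 28.6 intensity units in CKO against 34.1 ± 4.96 in wild type. On the overlapping probe A_51_P117952 it gave 225 ± 22.8 in CKO and 34.4 ± 5.2 in wild type. CKO was the higher array on both, by 8.24-fold and 6.50-fold (log2 differences of 3.04 ± 0.26 and 2.70 ± 0.26, with the error carried over from the scanner software). The first was larger than 99.9% of the differences of all measured probes and the second larger than 99.7%. Both wild-type signals were dim, near the limit of 16.6 for signals well above background, and under normexp background correction with its added offset of 50 the log2 differences were 1.69 and 1.57.

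The probes named for Hspa1a, at chr17:35106766-35106825 and chr17:35106796-35106855 (mm9, minus strand), list RefSeq transcripts of Hspa1a alone but overlap each other by 30 bases. They are therefore a repeated reading of nearly the same stretch and not separate evidence. The shared stretch reads as follows.
Hspa1a overlap: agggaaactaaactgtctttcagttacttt

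Both probes named for Hspa1b list accessions of Hspa1a as well as Hspa1b in the file, so their signal cannot be assigned to either gene. They lie at chr17:35094200-35094259 and chr17:35095608-35095667 (mm9, minus strand, per the file), at bases 1924 and 516 of the target transcript, and are printed because they carry this ambiguity.
A_52_P52803: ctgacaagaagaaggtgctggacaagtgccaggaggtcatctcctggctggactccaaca
A_52_P304902: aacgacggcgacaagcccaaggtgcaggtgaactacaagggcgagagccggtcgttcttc

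The probe A_52_P52803, named for Hspa1b, gave 32.5 ± 5.19 in CKO, where it was well above background, and 4.13 ± 4.12 in wild type, where it was not. It was therefore at least 1.95-fold higher in CKO, taking 16.6, the dimmest wild-type signal well above background, as the limit. The other probe of that name, A_52_P304902, gave 3.67 ± 3.65 in CKO and 3.55 ± 3.54 in wild type and was not well above background on either. Hspa1b thus had no probe measured on both arrays, and neither of its probes tells it from Hspa1a.

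Hspa8 encodes the HSP70 protein that cells make at all times. On A_51_P170371, at base 1731 of the transcript, it gave 25940 ± 2594 in CKO and 25775 ± 2578 in wild type, a ratio of 1.00. On A_52_P12877, at base 730, it gave 9205 ± 921 in CKO and 6142 ± 614 in wild type, which was 1.49-fold higher in CKO (log2 difference 0.57 ± 0.20). The probes of Hspa8 thus differed from each other by 0.57 ± 0.28 on the log2 scale, and neither reached 2-fold.

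The HSP110 proteins, which act as nucleotide exchange factors of HSP70, were represented by Hspa4l and Hsph1. For Hspa4l, the probe A_52_P667923 gave 661 ± 66.2 in CKO and 406 ± 40.7 in wild type. The probe A_51_P517928, which lies 69 bases further along, gave 1316 ± 132 in CKO and 761 ± 76.2 in wild type. These probes were 1.62-fold and 1.72-fold higher in CKO. Further towards the end of the transcript, A_52_P652704 gave 343 ± 34.5 in CKO and 299 ± 30.2 in wild type, and A_52_P75568 gave 400 ± 40.2 and 352 ± 35.4. The latter probes were 1.14-fold and 1.13-fold higher in CKO, so the 4 probes formed a pair with log2 differences of 0.70 and 0.78 and a pair with 0.19 and 0.18. The probe A_52_P75568 was designed on another transcript model of Hspa4l than the other 3. Hsph1 gave 2006 ± 201 in CKO and 1571 ± 157 in wild type, a log2 difference of 0.34 ± 0.20, which was within the spread between probes of a gene.

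Dnajb1, the J-domain co-chaperone that stimulates the ATPase of HSP70, had a pair of probes. On A_52_P171663, at base 880 of the transcript, it gave 4551 ± 455 in CKO and 2525 ± 252 in wild type. On A_51_P153486, at base 2121, it gave 44317 ± 4432 in CKO and 34652 ± 3465 in wild type. CKO was higher on both, by 1.79-fold and 1.27-fold, and neither reached 2-fold (log2 differences of 0.84 ± 0.20 and 0.35 ± 0.20). The first was just past 2-fold with quantile normalization of the arrays (1.02), with centring by intensity (1.02) and in the deposited log2 table (1.03).

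**Figure D2:**
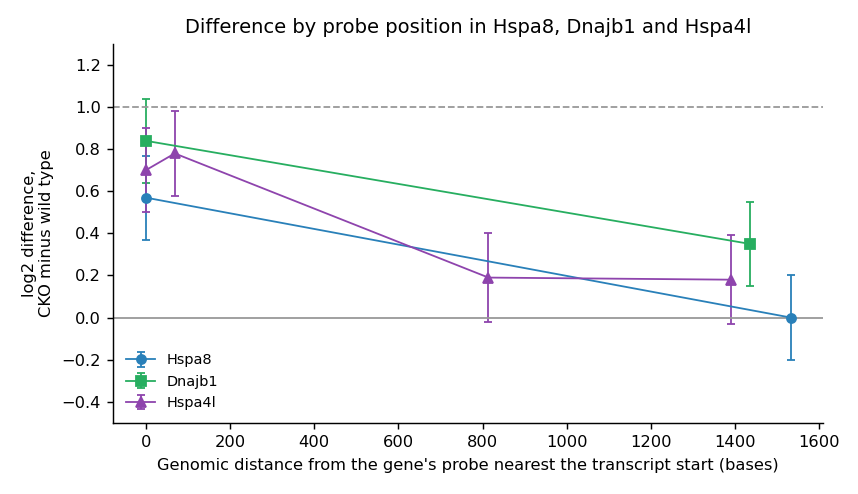
Log2 difference, CKO minus wild type (y axis, bars: error from the scanner software), of the measured probes of Hspa8, Dnajb1 and Hspa4l against their genomic distance in bases (x axis) from the probe of that gene nearest the transcript start. In all 3 genes the probes nearest the start gave the larger difference, up to 0.84 for Dnajb1, and those furthest along gave 0.00 to 0.35.

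The same direction was common on these arrays. Among 2883 transcripts with measured probes at least 500 bases apart, the probe nearer the start gave the larger CKO minus wild-type difference in 70.1%, with a median gap of 0.21 on the log2 scale and quartiles of -0.07 and 0.48. A gap of 0.5 or more occurred in 23.5% of them. The gaps of Hspa8 (0.57), Dnajb1 (0.50) and Hspa4l (0.51 between A_52_P667923 and A_52_P652704) therefore lie at or above the upper quartile of a gap that ran the same way across the arrays, and the part of that pattern in their values was not tested. Bag3 also had the larger value on the probe nearer the start, by 0.23 ± 0.35, which was within the error.

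Bag3 encodes a co-chaperone that binds HSP70 together with small heat shock proteins and, with HSPB8, steers misfolded proteins to autophagy. On A_51_P371174 it gave 1696 ± 170 in CKO and 703 ± 70.4 in wild type. On A_52_P630059, whose target spans 5967 bases of the genome at chr7:135683809-135689775 (mm9), it gave 68.8 ± 7.65 in CKO and 24.4 ± 4.1 in wild type. CKO was higher on both probes, by 2.40-fold and 2.81-fold (log2 differences of 1.26 ± 0.20 and 1.49 ± 0.29). The dimmer probe lost the 2-fold call with normexp background correction, at 0.63, whereas the brighter stayed at 1.18.

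Of the small heat shock proteins, Hspb8, the partner of BAG3, showed the larger difference. Its single probe gave 506 ± 50.7 in CKO and 69.8 ± 7.76 in wild type, which was 7.19-fold higher in CKO (log2 difference 2.85 ± 0.22), larger than 99.8% of the differences of all measured probes. With normexp it was 2.16. Hspb1, which encodes HSP27 (HSP25 in the mouse), gave 115300 ± 11530 in CKO and 68357 ± 6836 in wild type. It was 1.68-fold higher in CKO (0.74 ± 0.20) on the main scaling and 1.05 on the log2 scale with quantile normalization, so its side of the 2-fold line depended on the scaling.

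Hsp90aa1, the stress-inducible HSP90 gene, was the only one of the 9 measured genes with no probe above 0. It gave 18716 ± 1872 in CKO and 20127 ± 2013 in wild type, a log2 difference of -0.11 ± 0.20, less than its error. The sign turned under quantile normalization (0.15), under centring by intensity (0.15) and in the deposited log2 table (0.15).

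The upstream sequences of the members were taken from RefSeq (GRCm38.p6), as the 250 bases before the annotated start, and searched for a pair of inverted GAA units, GAANNTTC or TTCNNGAA (each motif reads the same on both strands; overlapping matches were counted). Of the 10 genes, 8 matched the table, and Hspa8 and Hsp90aa1 had no entry in it. A match was found in 4 of the 8 genes, Hspa1a, Hspa1b, Hspb1 and Hsph1, while 14.5% of all 27025 genes in the table and 12.8% of its 32851 promoters of the same length held one. The longer form with 3 units, in which GAANNTTC runs on with NNGAA or TTCNNGAA with NNTTC, was found in none of the 8 genes, in 0.514% of all genes and in 0.466% of all promoters. For each of these 4 genes 1 sequence with a match is printed 5′ to 3′ on the strand of the gene, with the matching letters in capitals: chr17:34972157-34972406 for Hspa1a, chr17:34959239-34959488 for Hspa1b, chr5:149636337-149636586 for the outer of the annotated starts of Hsph1 (all minus strand) and chr5:135887669-135887918 for Hspb1 (plus strand).
Hspa1a: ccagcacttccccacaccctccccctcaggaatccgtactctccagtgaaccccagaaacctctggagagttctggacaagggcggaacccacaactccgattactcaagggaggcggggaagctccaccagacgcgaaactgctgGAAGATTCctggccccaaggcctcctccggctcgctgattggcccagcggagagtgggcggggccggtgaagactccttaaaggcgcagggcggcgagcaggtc
Hspa1b: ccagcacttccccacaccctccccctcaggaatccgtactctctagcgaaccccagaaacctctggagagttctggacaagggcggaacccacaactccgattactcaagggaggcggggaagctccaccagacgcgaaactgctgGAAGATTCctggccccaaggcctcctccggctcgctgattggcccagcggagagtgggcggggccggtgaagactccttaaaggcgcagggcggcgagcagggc
Hsph1: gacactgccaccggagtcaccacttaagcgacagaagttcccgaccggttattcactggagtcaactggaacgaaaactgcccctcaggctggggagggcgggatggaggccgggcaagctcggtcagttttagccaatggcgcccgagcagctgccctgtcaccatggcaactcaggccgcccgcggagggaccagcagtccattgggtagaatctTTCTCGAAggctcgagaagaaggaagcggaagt
Hspb1: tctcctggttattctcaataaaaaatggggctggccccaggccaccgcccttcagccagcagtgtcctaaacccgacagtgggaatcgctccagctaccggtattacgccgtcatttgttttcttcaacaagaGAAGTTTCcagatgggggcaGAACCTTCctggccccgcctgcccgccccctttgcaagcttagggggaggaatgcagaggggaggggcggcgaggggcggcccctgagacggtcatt

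The match began 104 bases before the start in both Hspa1a and Hspa1b, whose printed sequences were identical at 247 of 250 positions. In Hsph1 the same match began 33 bases before the outer annotated start and 54 bases before the inner one, whose window (chr5:149636316-149636565) is not printed. Hspb1 had a match at 117 and another at 97 bases. Bag3, Hspb8, Hspa4l and Dnajb1 had none of these letters in the window. A match describes the sequence and does not show that a factor was bound there.

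**Figure D3:**
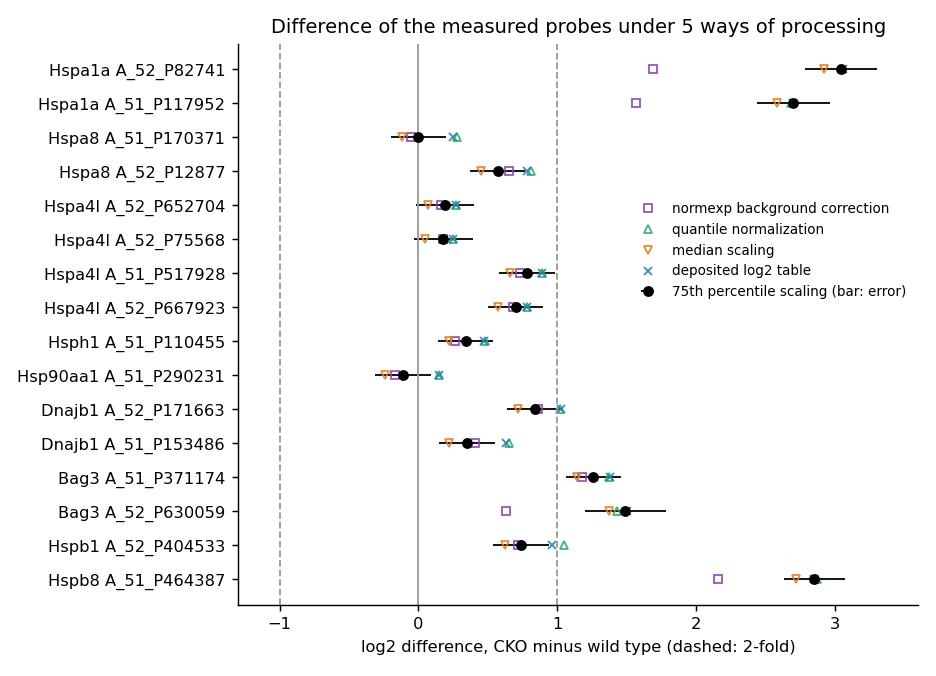
Log2 difference, CKO minus wild type (x axis, dashed lines at 2-fold), of the 16 measured probes under the main scaling (filled circles with the scanner software's error) and 4 alternatives (open symbols and crosses). The 2 Hspa1a probes, the Hspb8 probe and the brighter Bag3 probe lie past 2-fold under each of these settings, while Hspb1 crosses the line under quantile normalization and a Dnajb1 probe under quantile normalization and in the deposited table.

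**Figure D4:**
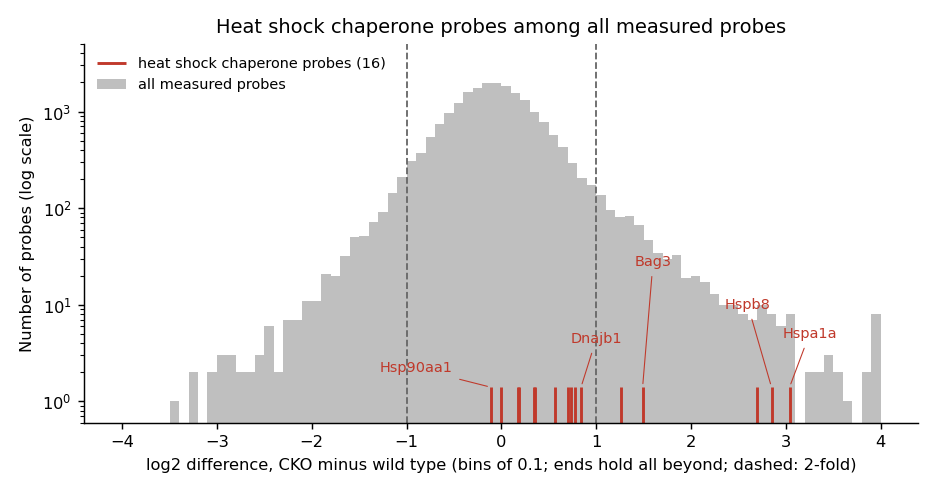
Number of measured probes (y axis, log scale) by log2 difference, CKO minus wild type (x axis, bins of 0.1), with the 16 heat shock chaperone probes as red ticks. The ticks run from -0.11 for Hsp90aa1 to 3.04 for Hspa1a, and 5 of them lie past the dashed 2-fold line.

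Few genes of the wider chaperone network reached 2-fold. In 9 lists of other HSP70, HSP110, HSP90 and small heat shock protein genes, J-domain and BAG proteins, co-chaperones, chaperonins, heat shock factors and other heat-inducible genes, 92 of 99 genes were measured on both arrays. By their brightest probe 1 of these 92 (1.09%) was at least 2-fold higher in CKO and 0 at least 2-fold lower, against 4.10% and 3.99% of all 14325 measured genes. Their median log2 difference was -0.15, beside -0.12 for all measured genes. These lists leave out the 10 members and were also chosen with earlier results of these data known. The gene past the line was Hspa12b, a distant HSP70 relative known from endothelial cells, with 125 in CKO against 61.3 in wild type (1.02), and it was 0.53 with normexp. Of the genes with several measured probes, Dnajb9, Dnajb4 and Hmox1 had another probe past 2-fold in CKO, at 1.63, 1.09 and 1.09, while their brightest probes stood at 0.71, -0.27 and -0.74.

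Several relatives of the members gave small differences. Hspa4, an HSP110 gene, gave 1233 in CKO and 1372 in wild type on its brightest probe (-0.16), and its measured probes ran from -0.16 to 0.32. Hspa2, an HSP70 gene best known from the testis, stood at 0.15, and Hsp90ab1, the constitutive HSP90 gene, at 0.06. Hspa5, the HSP70 of the endoplasmic reticulum, gave 5081 in CKO and 3510 in wild type (0.52). Hspa1l, a further HSP70 gene, was dim on both arrays, with 24.2 in CKO and 27.1 in wild type (-0.17). None of these reached 2-fold.

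The 7 measured genes of the list of other small heat shock proteins ran from -0.95 to 0.00, with a median of -0.19. The lowest value was that of Hspb11, and the next was -0.56 for Hspb9. Cryaa and Cryab, the alpha crystallins, gave -0.18 and -0.19 by their brightest probes, although another probe of Cryab stood at 0.40. Hspb7, a small heat shock protein of heart and skeletal muscle, was well above background in CKO alone, at 44.6 against 3.65, at least 2.67-fold higher. Of 10 skeletal muscle markers 5 were measured, with a median log2 difference of 0.62: Acta1 and Actc1 were 2.59-fold and 2.05-fold higher in CKO and Actn2 2.67-fold lower. The other 5 (Myh3, Myh8, Tnnt3, Ckm and Myog) were well above background on neither array. The summed signal of all 10 muscle markers was 1702 in CKO and 3640 in wild type, of which Actn2 made up 1265 and 3353. The part of muscle in the value of Hspb7 was not tested.

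Co-chaperones and chaperonins, many of which also respond to heat, had medians of 0.02 and -0.15. Stip1, which links HSP70 to HSP90, stood at 0.39 and Chordc1, an HSP90 co-chaperone, at -0.51, with another Chordc1 probe at 0.09. Dnaja1, a J-domain protein, stood at 0.12 by its brightest probe with others down to -0.72, and the mitochondrial chaperonins Hspd1 and Hspe1 stood at -0.02 and 0.03. The 5 other BAG genes ran from -0.57 to 0.01, and Serpinh1, the collagen chaperone HSP47, gave 1443 in CKO and 2161 in wild type (-0.59). Of the heat shock factors, Hsf1 stood at -0.41 by its brightest probe with others up to 0.22, Hsf4 at 0.23, and Hsf2 was not well above background on either array.

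**Figure D5:**
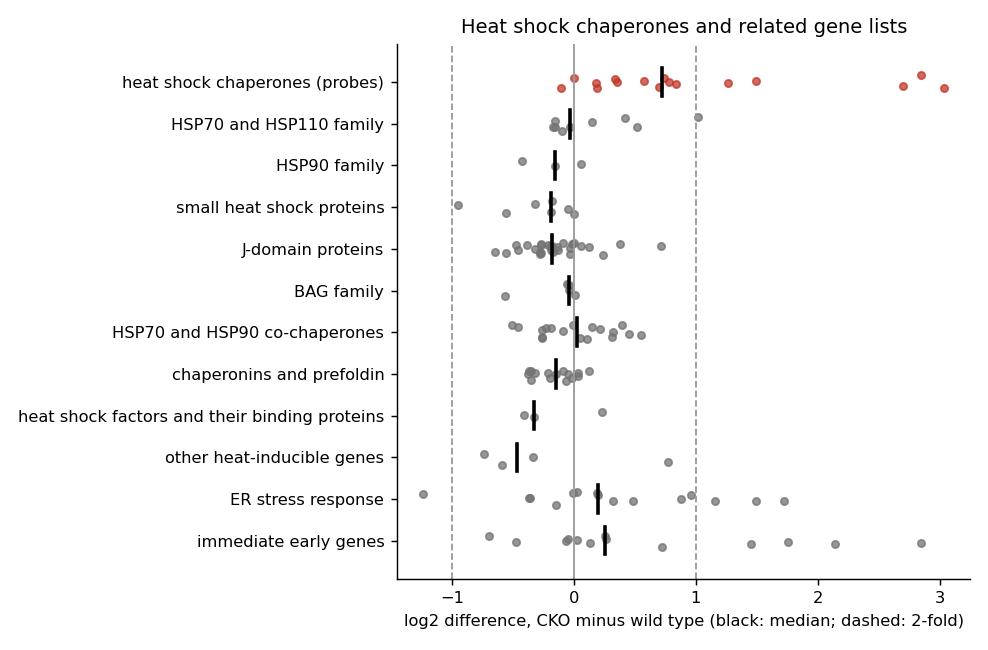
Log2 difference, CKO minus wild type (x axis, dashed lines at 2-fold), of the 16 heat shock chaperone probes (red) and of the measured genes of 11 related lists by their brightest probe (grey), with black bars for medians. The chaperone probes have a median of 0.72, and the 9 other chaperone and heat shock lists hold 1 gene past 2-fold.

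Among other stress genes, those at least 2-fold apart were mostly higher in CKO. Of 15 measured genes of the endoplasmic reticulum stress response, 3 were at least 2-fold higher in CKO, Ddit3 (3.30-fold), Sdf2l1 (2.80-fold) and Herpud1 (2.23-fold), and 1 was lower, Ppp1r15a (2.37-fold), with a median log2 difference of 0.20. Trib3 of the same list was well above background in CKO alone, at 234 against 8.05, at least 14.0-fold higher. Of 13 measured immediate early genes, which respond within minutes to many stimuli, 4 were at least 2-fold higher and 0 lower: Egr1 (7.19-fold), Junb (4.42-fold), Klf4 (3.39-fold) and Ier2 (2.72-fold). Their median was 0.25, and Jun stood at -0.70. Over all measured genes 4.10% were at least 2-fold higher and 3.99% lower. A further 5 of the 20 listed immediate early genes were well above background in CKO alone. They were Atf3 (at least 16.5-fold higher), Egr2 (5.23-fold), Fos (3.22-fold), Myc (2.68-fold) and Ier3 (1.84-fold). The part of these stress genes in the values of the chaperones was not tested.

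Markers of other cells also differed between the arrays. Of 17 macrophage markers 7 were measured at least 2-fold higher in CKO, 7 were well above background in CKO alone and 1 in wild type alone, and their summed signal was 9685 in CKO and 1425 in wild type. The measured ones past 2-fold included Ctss (42.3-fold), Trem2 (23.5-fold), Tyrobp (16.6-fold) and Pf4 (8.11-fold), while C1qb stood at -0.02. Of 10 endothelial markers 7 were at least 2-fold higher, with summed signals of 6157 and 2097, and of 9 fibroblast and mesenchyme markers 4 were, with summed signals of 12741 and 1489. Among them were Vwf (4.41-fold), Tie1 (3.84-fold), Eng (3.66-fold) and Cldn5 (3.19-fold) of the endothelial list, and Col3a1 (28.5-fold), Mgp (7.93-fold), Col1a2 (7.08-fold) and Postn (6.98-fold) of the fibroblast list. Dcn, Lum and Col1a1 of the fibroblast list were well above background in CKO alone, at least 344-fold, 53.1-fold and 14.4-fold higher. Dcn made up 5740 of the CKO sum of that list. Its measured markers Pdgfrb and Fbln1 stood at -0.28 and -0.08 by their brightest probes, with another Fbln1 probe at 1.01. In wild type 9 of the 10 endothelial markers (all but Pecam1), 6 of the 9 fibroblast markers (all but Col1a1, Dcn and Lum) and 10 of the 17 macrophage markers were well above background. Pericyte and smooth muscle markers had 3 of 6 measured at least 2-fold higher in CKO, Cspg4 (2.85-fold), Kcnj8 (2.62-fold) and Rgs5 (2.42-fold), and 0 lower. Their summed signals were 5580 in CKO and 4723 in wild type. Pigment cell markers had 2 of 3 measured higher, Dct (10.6-fold) and Pmel (2.83-fold), and 0 at least 2-fold lower. The other measured one, Mitf, stood at -0.90. Tyrp1 and Mlana were well above background in CKO alone, and Tyr and Slc45a2 on neither array. The summed signals of the pigment cell markers were 757 in CKO and 685 in wild type. Of 14 fibre cell markers 4 were at least 2-fold lower in CKO, Lgsn (4.64-fold), Birc7 (2.66-fold), Fabp5 (2.35-fold) and Dnase2b (2.13-fold), and 0 higher. Lens epithelium markers, all 10 measured, had 1 higher, Aqp1 (3.74-fold), and 1 lower, Clu (2.34-fold). The part of these cells in the values of Hspa1a, Hspb8 and Bag3 was not tested. In RNA of the whole lens sample it cannot be told apart from a difference within lens cells.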

How the data were processed

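Lens RNA was amplified with a low-input kit that adds Cy3, per the labels' protocols. The scanner files that the authors deposited hold intensity values of Agilent design 014868, extracted with Feature Extraction 10.7.3.1 (10.7 in the submitters' processing notes) with probe positions in mm9, per the file headers. The processed intensity was corrected for background within the array and not normalized between arrays. A log2 table that the authors deposited beside them, with column medians of 4.87, served as an alternative: its scaling and centring are not stated in these sources, and its difference correlated with that of the scanner files at r = 0.987 across probes and ran the same way. The marks for background, saturation and outlier spots, coded 0 or 1, are those of the software in the deposited files.

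From the processed intensity, log2 was taken and the 75th percentile of non-control spots (203 in CKO, 201 in wild type) subtracted. Outlier spots were left out and spots of a probe averaged. A probe was measured when more than 50% of its spots were well above background on both arrays and none was saturated. Genes outside the 10 took their brightest measured probe. Names were updated through RefSeq accessions (GRCm38.p6) for 27667 probes. A probe above background on 1 array alone got an at-least fold against the dimmest level well above background on the opposite array, or its own level there if higher. With 1 array a genotype there was no test, and the number of arrays limits the precision.

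The members and gene lists were chosen with earlier results of these data known. All members are named, and of each other list described the measured genes past 2-fold, up to 4 by size, and a fixed set of relatives. Hspb7, Hspb9, Hspb11, Dnajb4, Dnajb9, Hmox1, Trib3, Jun, C1qb and markers named as not detected on at least 1 array were named after their values were seen. So were Hspa1l, Mitf, Pdgfrb, Fbln1, Atf3, Egr2, Fos, Myc and Ier3. No gene was named for likeness of pattern, since over 2 arrays a pattern is 1 difference. Normexp (offset 50) came from R 4.3.3 and limma 3.58.1, the rest from Python 3.11.15, numpy 2.4.6, pandas 2.3.3 and statsmodels 0.14.6. The scalings and the 2-fold calls, but not the other steps, were tested on simulated data with changes well past 2-fold.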

Additional observations from a re-analysis of the deposited data

How the results depend on the processing

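The count of 5 chaperone probes at least 2-fold higher became 9 at 1.5-fold (9.23% of all measured probes), 3 at 3-fold (1.25%) and 3 of 9 with the brightest probe of each gene (4.10% of all genes), an alternative added after the data were seen. It lay between 4 and 7 under the other scalings, background correction, filters and the deposited table, beside shares of all probes from 1.32% with normexp to 7.35% when detection on a single array was enough, and 0 probes were at least 2-fold lower under any of these settings. The median of 0.72 ranged from 0.60 with median scaling, which moved the median of all probes from -0.08 to -0.21, to 0.86 with intensity-dependent centring, and was 0.70 with 1 probe of the overlapping Hspa1a pair. In the 11 wider lists 8 of 120 measured genes (6.67%) were at least 2-fold higher and 1 lower, against 4.10% and 3.99% of all genes. The count of 8 became 5 with normexp background correction. It was 7 with median scaling, 9 in the deposited table and 10 with intensity-dependent centring. Of 143 values of single probes under alternatives, 4 moved by more than the SD of 0.36 between probes of a gene. All 4 were with normexp: both Hspa1a probes (1.69 and 1.57), the dimmer Bag3 probe (0.63) and Hspb8 (2.16). The 143 include values under filters, which choose probes and cannot move a value. They also include values with outlier spots kept, which did not move. The share that stayed is therefore no measure of robustness. Signal over background limits Hspa1b in particular. No paired analysis was possible because each genotype has 1 array.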

Other observations

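Promoters were also taken as a starting point. Of the genes whose 250 upstream bases hold the motif with 3 inverted GAA units, 49 were measured on both arrays, and 2 of them were at least 2-fold higher in CKO (4.08%) and 0 lower, with a median log2 difference of -0.01. Among all 9787 measured genes with a promoter sequence, 4.30% were higher and 3.75% lower, with a median of -0.10. The genes past the line were Slco2b1, an organic anion transporter gene (3.01-fold), and Bst2, which encodes the interferon-induced protein tetherin (2.43-fold). With the shorter motif of 2 units, 1202 genes were measured, of which 3.83% were higher and 4.41% lower.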
